A study of Gallus gallus with 4 samples.

Results

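The genes described here are EXFABP, LYG2, SPINK7 and PSCA, 4 of the 24356 genes counted in the embryonic chicken lung. They were selected on measured values, since their RNA was far higher in lung epithelium at embryonic day 20 (E20) than at day 13 (E13), by more than in endothelial or mesenchymal cells of the same libraries. The rule took the gene rows with these symbols in 3 RNA matrices, and 12 of the 87491 accessible chromatin peaks of the E13 nuclei that the authors' peak list assigns to these genes. Their rise from E13 to E20 is therefore a description of the choice, not a result. All 4 were grouped as secreted defence genes, and that name holds by background knowledge for 3 of them only, since PSCA encodes a protein that stays attached to the cell surface.

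Lungs of wild-type chicken embryos were dissociated and sorted by flow cytometry. At E13, nuclei from all lung cells, with the sorted populations mixed in about equal proportions, gave RNA and chromatin (ATAC) readouts of the same nuclei. At E20, sorted epithelial cells gave 1 RNA library (the sorted epithelial library) and all lung cells other than immune cells gave another (the CD45neg library). Each library stands alone, with no replicate, so no difference between groups was tested and every interval below covers counting error only. Nuclear RNA is the molecule on the labels of the E13 and E20 epithelial samples, while that of the CD45neg sample says total RNA.

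EXFABP encodes extracellular fatty acid-binding protein, a lipocalin that binds lipids and the iron-scavenging siderophores of bacteria. LYG2 encodes a goose-type lysozyme, an enzyme that cuts bacterial cell walls. SPINK7 is the symbol of chicken ovomucoid, a Kazal-type inhibitor of serine proteases and a main protein of egg white, and its RefSeq synonyms are OM, OVM and SPIK7. PSCA (prostate stem cell antigen) belongs to the Ly6 family of small proteins held to the membrane by a lipid anchor. In the late embryonic lung, one kind of epithelial cell makes surfactant, the film of lipid and surfactant proteins that lowers surface tension in the air spaces, while other epithelial cells line the gas-exchange surface or the airways.

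Filters kept 7038 nuclei at E13, 5186 cells in the sorted epithelial library and 2684 in the CD45neg library. Their median depth was 3509 to 4482.5 unique molecular identifiers (UMIs, which count RNA molecules). Clusters were named from marker genes, and the names rest on these rebuilt clusters. In the same order, 3953, 1941 and 90 cells were epithelial-like, and their summed RNA held EPCAM, a surface protein of epithelial cells, at 318, 589 and 604 counts per 1000000 UMIs (CPM). PTPRC, which encodes the immune marker CD45, stood at 3.26, 0.891 and 0 CPM in them. The sorted epithelial library held many other cells besides, including 1191 erythroid-like, 909 endothelial-like, 635 mesenchymal and 200 immune-like cells. Mitochondrial genes took a median of 42.7% of UMIs in E13 nuclei, against 7.46% and 3.62% at E20. The E20 libraries listed 106 barcodes in common, and 100 of the 104 that were kept in the CD45neg library were erythroid-like. None was shared with E13. Values without the shared barcodes are given where they bear on a result.

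In epithelial-like cells all 4 genes went from barely counted at E13 to abundant at E20, and both E20 libraries gave nearly the same level for each. Stage is tied here to the assay, since E13 was read from nuclei in a multiome assay and E20 from single-cell libraries, so stage, assay and library cannot be told apart. At least 2-fold higher than the median gene at E20 were 4 of the 4 genes in either library. The same held for 38.9% of the 3196 genes compared in the sorted epithelial library and for 38.7% in the CD45neg library, and nothing is read from that count because this contrast chose the genes. None of the 4 was called lower, where 40.2% and 40% of genes were. Genes at 50 CPM or more in the higher group entered that comparison.

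EXFABP, the siderophore-binding lipocalin, had 488 UMIs in the 3953 epithelial-like nuclei at E13, or 15.5 CPM (95% Poisson interval 14.1 to 16.9). At E20 it stood at 3063 CPM (3033 to 3092) in the epithelial library and at 3170 CPM (3039 to 3305) in the CD45neg library. That is 198-fold (counting interval 181 to 217) and 205-fold (186 to 227) above E13. Both E20 values lie close together although the CD45neg value rests on 90 cells.

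LYG2, the goose-type lysozyme, started from the best-counted E13 level of the 4, with 1127 UMIs. Its level was 35.7 CPM (33.6 to 37.8) at E13, 2752 CPM (2724 to 2781) in the sorted epithelial library and 2484 CPM (2368 to 2604) in the CD45neg library. The E20 to E13 ratio was 77.1 (72.7 to 81.9) and 69.6 (64.5 to 75.1). Its intervals in the E20 libraries do not overlap, with the CD45neg library the lower.

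SPINK7, the ovomucoid gene, had 278 UMIs at E13, or 8.81 CPM (7.80 to 9.90). It stood at 1310 CPM (1291 to 1330) and 1439 CPM (1351 to 1531) in the sorted epithelial and CD45neg libraries. These are ratios of 149 (132 to 168) and 163 (143 to 187). Here the CD45neg library was the higher, again with intervals that do not overlap.

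PSCA, the Ly6-family surface protein, was close to absent at E13, with 1 UMI among all epithelial-like nuclei, or 0.0317 CPM (0.000802 to 0.176). At E20 it reached 762 CPM (747 to 777) in the epithelial library and 713 CPM (652 to 779) in the CD45neg library. The ratio to a single UMI has a wide counting interval, from 4316 to 950156 in the first library and from 4022 to 891068 in the second. With 1 UMI, the fitted log2 ratio of PSCA depended on the pseudocount: it was 9.51 with 1 CPM added and 7.23 with 5. Totals without mitochondrial, ribosomal protein and haemoglobin genes raised the log2 ratio relative to the median gene from 7.52 to 8.17 for EXFABP, from 6.21 to 6.83 for LYG2, from 7.04 to 7.72 for SPINK7 and from 9.51 to 11.08 for PSCA in the sorted epithelial library.

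**Figure D1:**
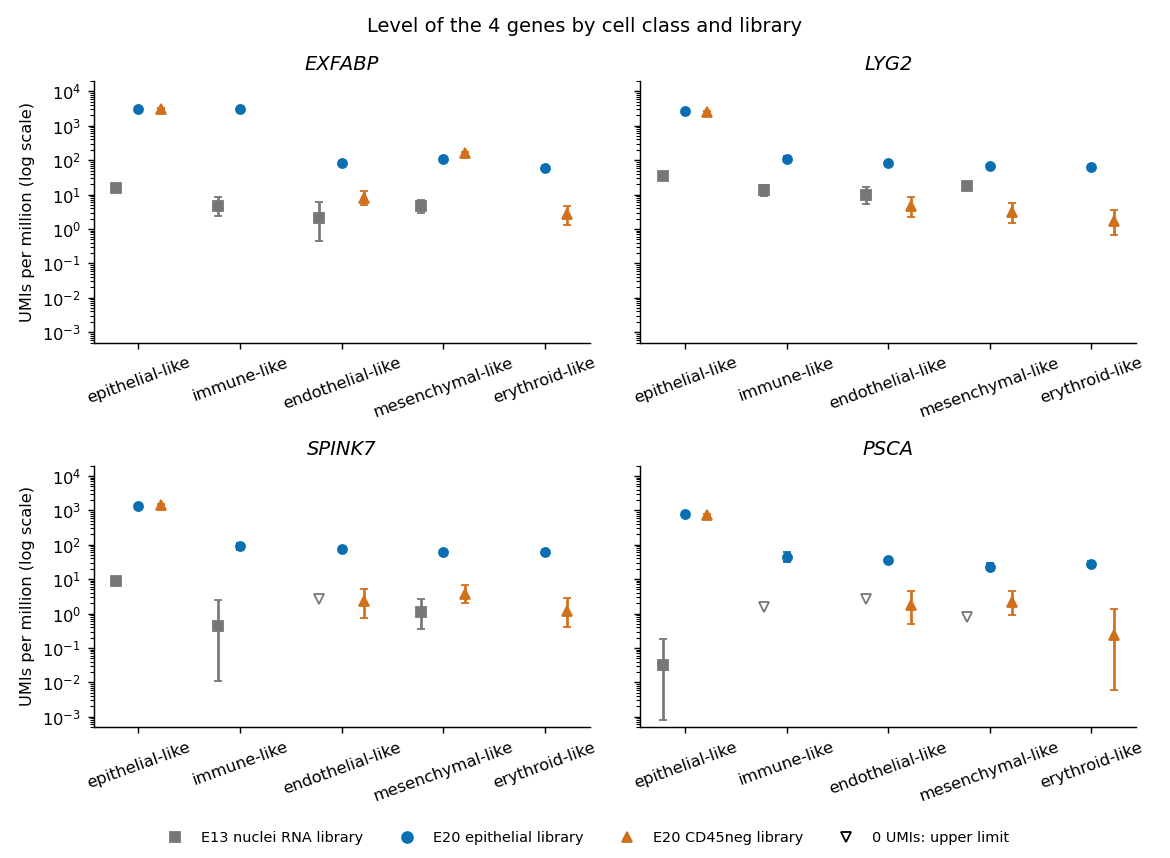
Level of each gene (CPM, log scale) in 5 named cell classes of the 3 RNA libraries, as points with 95% Poisson intervals, and open triangles at the upper limit where no UMI was counted. Epithelial-like cells at E20 lie near the top in every panel, and EXFABP alone is as high in immune-like cells of the sorted epithelial library, at 3167 CPM against 3063 CPM in epithelial-like cells.

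Counted cell by cell, the genes were common in the E20 epithelium and rare at E13. Every cell was thinned to 1000 UMIs for this, so that depth did not set the shares. EXFABP had a UMI in 63.5% of 1935 epithelial-like cells of the sorted epithelial library (exact binomial interval 61.3 to 65.6), LYG2 in 73.6% (71.6 to 75.6), SPINK7 in 42.6% (40.4 to 44.8) and PSCA in 29.1% (27.1 to 31.2). Before thinning these shares were 80.4%, 91.6%, 68.9% and 57.3%. Endothelial-like cells of the same library, taken here as background, gave 6.92%, 8.82%, 9.60% and 3.57% in the same order. The part of free RNA in their shares was not tested. That the epithelial shares lie above them follows from the choice of the genes. Median depth before thinning was 6416 UMIs in the epithelial-like and 4125 UMIs in the endothelial-like cells.

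The CD45neg library gave 68.9% for EXFABP, 75.6% for LYG2, 35.6% for SPINK7 and 27.8% for PSCA in its 90 epithelial-like cells. Its endothelial-like cells gave 0.611%, 0.153%, 0.305% and 0.305%, at median depths of 6986.5 UMIs in epithelial-like and 3081.5 UMIs in endothelial-like cells. At E13 the thinned shares in epithelial-like nuclei were 1.82%, 3.83%, 0.836% and 0.0253%. Against the 156 endothelial-like nuclei (EXFABP, SPINK7 and PSCA 0, which allows up to 1.92%; LYG2 1.28%) none of the 4 shares stood clear of the interval at 1000 UMIs, and 2 did at 2000 UMIs. The E13 median depths were 5381 UMIs in epithelial-like and 5740.5 UMIs in endothelial-like nuclei.

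The UMIs of each gene were unevenly spread over the E20 epithelium. In the epithelial library the median epithelial-like cell had 12 EXFABP UMIs, 15 LYG2 UMIs, 3 SPINK7 UMIs and 1 PSCA UMI, and the highest cell 415, 191, 115 and 303. The tenth of cells with the most UMIs of a gene held 40.5% of EXFABP, 32.7% of LYG2, 44.6% of SPINK7 and 66.2% of PSCA. PSCA was thus the most concentrated of the 4 by this measure. The CD45neg library gave 40.5%, 33.4%, 56.3% and 63.0% in the same order.

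Splitting all kept cells by EPCAM, all 4 genes were higher in cells with at least 1 EPCAM UMI in both E20 libraries, while at E13 the difference was small. Called at least 2-fold higher than the median gene were 4 of the 4 genes in the sorted epithelial library, where 16.1% of 3015 genes were, and 4 of the 4 in the CD45neg library, where 19.9% of 2837 genes were. None was called lower, against 20.7% and 23.3%. EPCAM-negative cells are mostly of the endothelial, mesenchymal and erythroid classes, and the genes were chosen for a larger rise in epithelium than in the first 2, so the E20 counts follow from the choice and nothing is read from them. At E13 none of the 4 reached 50 CPM, so they lay outside the 2409 genes compared and no call could be made for them. Of those genes 2.7% were called higher and 10.3% lower. Of the sorted epithelial library, 1892 cells were EPCAM-positive and 3294 negative, and of the CD45neg library, 83 and 2601. EPCAM-positive cells were deeper, with medians of 6523 against 3414 UMIs in the first library and 7271 against 3469 UMIs in the second. At E13 the medians were 5616 against 3353 UMIs.

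At E20, EXFABP stood at 3023 CPM in EPCAM-positive and 367 CPM in EPCAM-negative cells of the epithelial library, an 8.24-fold difference (7.99 to 8.49). In the CD45neg library it stood at 3218 and 64.6 CPM, a 49.8-fold difference (45.7 to 54.3). LYG2 gave 2692 and 171 CPM (15.7-fold, 15.1 to 16.4) and then 2512 and 9.94 CPM (253-fold, 208 to 309). The ratio was larger in the CD45neg library for all 4 genes, and the EPCAM-negative levels differed between the libraries far more than the EPCAM-positive ones.

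SPINK7 stood at 1290 and 105 CPM in EPCAM-positive and EPCAM-negative cells of the epithelial library (12.3-fold, 11.6 to 13.04) and at 1486 and 4.52 CPM in the CD45neg library (329-fold, 247 to 446). PSCA stood at 718 and 86.6 CPM (8.29-fold, 7.79 to 8.83) and at 623 and 9.03 CPM (68.9-fold, 55.3 to 86.6). EPCAM-negative cells of the epithelial library also held SFTPC, the surfactant protein C gene, at 4213 CPM, against 308 CPM in those of the CD45neg library. Epithelial-like cells made up 193 of the 3294 EPCAM-negative cells of the epithelial library (5.86%). In the CD45neg library they made up 10 of 2601 (0.384%). The parts of these epithelial-like cells and of free RNA in the EPCAM-negative levels were not tested. With cells thinned to 1000 UMIs before EPCAM was called, the log2 ratios relative to the median gene in the sorted epithelial library were 1.72 for EXFABP, 2.01 for LYG2, 1.52 for SPINK7 and 1.94 for PSCA, against 3.48, 4.41, 4.05 and 3.48 without thinning.

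At E13, EXFABP was at 14.9 CPM in 3656 EPCAM-positive nuclei and 6.57 CPM in 3382 EPCAM-negative nuclei (2.26-fold, 1.80 to 2.87). LYG2 was at 34.6 and 21.7 CPM (1.60-fold, 1.40 to 1.82), and SPINK7 at 7.52 and 4.89 CPM (1.54-fold, 1.17 to 2.05). The single PSCA UMI fell in an EPCAM-negative nucleus that was epithelial-like. EPCAM divided the E13 classes poorly, since 1075 of the EPCAM-negative nuclei were epithelial-like. Relative to the median gene the log2 ratio of EXFABP was 0.97, just under the 2-fold limit, and 5 of the 9 alternatives put it over, at up to 1.17. SPINK7 changed sign to -1.04 with nuclei thinned to 1000 UMIs, where 3 UMIs were left in EPCAM-positive nuclei.

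EXFABP was also abundant outside the epithelium. In the 200 immune-like cells of the sorted epithelial library it stood at 3167 CPM (3047 to 3290), which is 103% of the epithelial-like level (99.4 to 107.6). LYG2 stood at 3.89% of its epithelial-like level in those cells, SPINK7 at 6.88%, PSCA at 5.84% and SFTPC at 2.76%. In endothelial-like cells the 4 genes ranged from 2.75% to 5.82%. The surfactant gene SFTPA1 stood at 13.8% (12.8 to 14.9) in immune-like and 4.44% in endothelial-like cells, so not every epithelial RNA was as low in immune-like cells as SFTPC. After thinning to 1000 UMIs, EXFABP had a UMI in 25.9% of 197 immune-like cells (19.9 to 32.6), against 6.92% of endothelial-like cells.

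A minority of the immune-like cells carried this EXFABP. Of the 200 cells, 91 had any EXFABP UMI, and the tenth with the most held 82.9% of them. The 34 cells with at least 10 EXFABP UMIs, a limit set after the values were seen, held EXFABP at 14828 CPM (14254 to 15420), against 187 CPM (156 to 223) in the other 166. That difference was fixed by the split, which was made on EXFABP itself, and nothing is read from it. The EXFABP-rich cells held S100A12, which encodes a calcium-binding protein of granulocytes and monocytes in mammals, at 30105 CPM against 945 CPM. The immune gene PTPRC was at 295 and 346 CPM in the same order, CSF1R, the receptor of a macrophage growth factor, at 839 and 1462 CPM, and SFTPC at 1860 and 2158 CPM. EPCAM had 9 and 7 UMIs in all, at 53.1 CPM (24.3 to 100.9) and 10.6 CPM (4.25 to 21.8). CDH1, another epithelial gene, went the other way, with 6 and 45 UMIs, at 35.4 and 67.9 CPM, and its intervals overlap. The epithelial genes therefore did not differ in 1 direction between these groups. Median depth was 4927 UMIs in the EXFABP-rich cells and 3563.5 UMIs in the rest. The part of free RNA and of doublets in these values was not tested. PSCA was at 124 CPM (21 UMIs) in the EXFABP-rich cells and 24.1 CPM (16 UMIs) in the rest, and 1 immune-like cell alone held 14 PSCA UMIs.

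Without the immune-like cells, EXFABP in EPCAM-negative cells of the sorted epithelial library fell from 4644 to 2108 UMIs, and its log2 ratio relative to the median gene went from 3.48 to 4.50. The values of the other 3 genes moved by less than 0.10 in that step. In the CD45neg library, which was sorted to leave out immune cells, no cluster was named immune-like. There EXFABP stood at 157 CPM in mesenchymal cells, or 4.97% of its epithelial-like level (4.50 to 5.48), while LYG2, SPINK7 and PSCA were at 0.127%, 0.264% and 0.310% of theirs. SFTPC was at 0.121% in the same cells. The highest mesenchymal cluster, of 45 cells led by the muscle genes ACTA1, CNN1 and ACTG2, held EXFABP at 459 CPM. An unnamed cluster led by the immune gene CD74 and by AVD, an egg-white protein gene, held EXFABP at 139 CPM. CD74, AVD and the immune markers BLB2 and LY86 were among its leading genes and among those of immune-like cluster 9 of the sorted epithelial library. In that library AVD stood at 6587 CPM in immune-like and 14.9 CPM in epithelial-like cells. Haemoglobin genes took 60.3% of the UMIs of that unnamed cluster.

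Within the E20 epithelium, EXFABP, LYG2 and SPINK7 were higher in cells with much surfactant RNA, and PSCA was higher in cells with little. Each epithelial-like cell was given its surfactant share, the percent of its UMIs from SFTPC, SFTPA1 and SFTPA2, and each library was split at its median, 8.96% in the epithelial and 7.39% in the CD45neg library. The split cuts a range and does not define cell types, and 196 of 1941 and 3 of 90 cells lay within 10% of it. Called at least 2-fold higher in surfactant-high cells were 3 of the 4 genes in the epithelial library, where 8.38% of 2445 genes were, and 3 of the 4 in the CD45neg library, where 12% of 2605 genes were. Called lower was 1 of the 4 in each, against 8.83% and 14.2%. In the epithelial library surfactant-high cells were deeper, with a median of 8081 against 5074 UMIs, and held fewer mitochondrial UMIs, 6.76% against 11.1%. In the CD45neg library the medians were 10213 against 4890 UMIs and 4.15% against 7.05%. The part of these differences in the result was not tested.

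EXFABP stood at 3750 CPM (3708 to 3792) in the 970 surfactant-high cells and at 1989 CPM (1951 to 2028) in the 971 surfactant-low cells of the epithelial library. In the CD45neg library, with 45 cells in each group, it stood at 3911 and 1706 CPM. LYG2 gave 3353 and 1813 CPM and then 2969 and 1526 CPM. Both genes were therefore 1.85-fold to 2.29-fold higher in surfactant-high cells in plain CPM. The median gene was lower there, with log2 ratios of -0.57 and -0.67, and relative to it the log2 ratios were 1.49 and 1.87 for EXFABP and 1.46 and 1.63 for LYG2.

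SPINK7 differed more steeply across this split, in which SFTPC supplied most surfactant UMIs. It stood at 1856 CPM (1827 to 1886) in surfactant-high and 457 CPM (439 to 476) in surfactant-low cells of the epithelial library, a 4.06-fold difference (3.89 to 4.24). The CD45neg library gave 1973 and 386 CPM, a 5.12-fold difference (4.12 to 6.43). Among the 2445 genes compared in the epithelial library SPINK7 ranked 19 from the highest.

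PSCA ran the other way. It stood at 212 CPM (202 to 222) in surfactant-high and 1622 CPM (1588 to 1657) in surfactant-low cells of the epithelial library, a ratio of 0.130 (0.124 to 0.137). In the CD45neg library it stood at 69.5 CPM (47.5 to 98.1) and 1984 CPM (1807 to 2173), a ratio of 0.0350 (0.0237 to 0.0501). It ranked 61 and 31 from the lowest among the genes compared in the epithelial and CD45neg libraries. Without the shared barcodes its log2 ratio relative to the median gene was -2.33 against -2.36 in the epithelial library, and in the CD45neg library it stayed at -4.15, since none of the epithelial-like cells there had a shared barcode.

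Along the surfactant share SPINK7 and PSCA changed mainly at 1 place, while EXFABP and LYG2 rose over the lower groups and then levelled off. The cells of the sorted epithelial library were put in 5 groups of equal size by surfactant share. From the lowest to the highest group, SPINK7 stood at 80.0, 171, 1746, 2076 and 1507 CPM. EXFABP stood at 652, 1954, 3807, 3728 and 3860 CPM, and LYG2 at 1018, 1623, 3293, 3396 and 3329 CPM. SPINK7 rose most between the group that ended at a surfactant share of 4.32% and the next. EXFABP and LYG2 had already risen between the lowest groups, and their upper 3 groups were nearly level. PSCA stood at 1973, 1929, 428, 154 and 269 CPM.

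**Figure D2:**
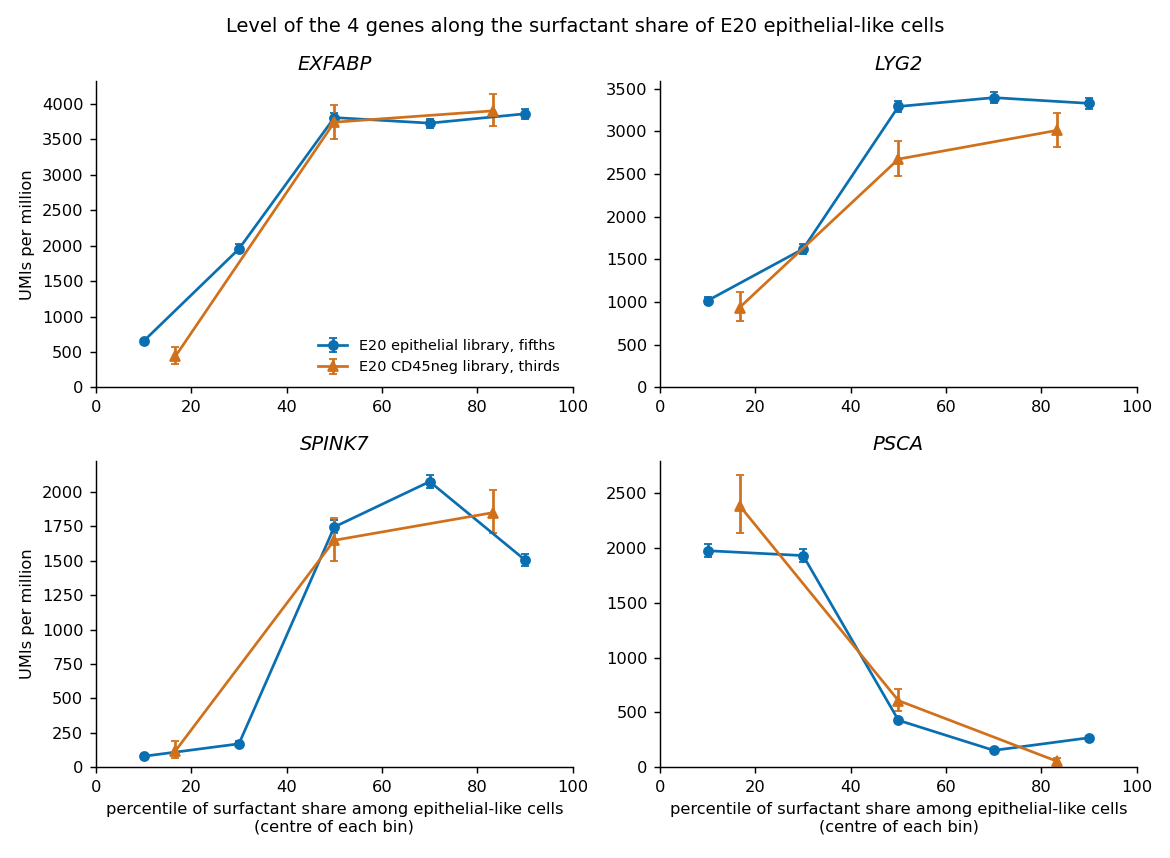
Level of each gene (CPM, 95% Poisson intervals) in 5 groups of epithelial-like cells of the sorted epithelial library and 3 of the CD45neg library, ordered by surfactant share. PSCA falls from 1973 to 269 CPM across the 5 groups while EXFABP goes from 652 to 3860 CPM, and in the CD45neg library PSCA falls from 2384 to 53.4 CPM while EXFABP goes from 438 to 3902 CPM.

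The split depended on SFTPC, which supplied most surfactant UMIs. With SFTPA1 and SFTPA2 alone as the surfactant measure, the log2 ratios relative to the median gene in the epithelial library were 0.24 for EXFABP, 0.42 for LYG2, -0.47 for SPINK7 and 0.32 for PSCA. In the CD45neg library they were 0.12, 0.70, 0.12 and -0.70 in the same order. All of these lay under the 2-fold limit. With at most 10% mitochondrial UMIs, the epithelial-like cells of the sorted epithelial library fell from 1941 to 1263 and their median surfactant share rose to 10.4%. At that limit EXFABP gave 0.61, LYG2 0.62, SPINK7 0.97 and PSCA -2.00 there, so that only PSCA stayed past the 2-fold limit. In the CD45neg library, with 77 epithelial-like cells left, they gave 1.54, 1.39, 2.51 and -4.07, all past the 2-fold limit. The share of all genes past it is not given for either setting, so the lost calls are not read further.

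Clusters of the sorted epithelial library differed in all 4 genes. Neither the 4 genes nor the surfactant genes were used to form the clusters, although genes that vary with them were, so cluster levels are a description. SPINK7 stood at 2138 CPM in cluster 1 (795 cells, led by LGI3 and SFTPC), 811 CPM in cluster 4 (478 cells, led by UPK1B, SFTPA1 and KRT7), 97.2 CPM in cluster 3 (591 cells, led by CA3B and EMP1) and 54.8 CPM in cluster 11 (77 cells, led by the cathelicidin gene CATHL2 and the defensin gene AvBD1). The endothelial-like cells of the library were at 76.2 CPM, so SPINK7 in clusters 3 and 11 lay near the level of those cells. SPINK7 was thus well above that level in clusters 1 and 4 of these 4.

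EXFABP was spread more widely, at 3823 CPM in cluster 1, 3881 CPM in cluster 4, 2061 CPM in cluster 11 and 474 CPM in cluster 3. LYG2 followed the same order of clusters, at 3306, 3392, 1316 and 900 CPM. PSCA stood at 116 CPM in cluster 1, 1050 CPM in cluster 4, 678 CPM in cluster 11 and 1949 CPM in cluster 3. Surfactant-high cells made up 90.9% of cluster 1, 50.6% of cluster 4, 6.49% of cluster 11 and none of cluster 3. Cluster 4 was the cluster in which all 4 genes stood at 811 CPM or more, which as a sum over cells does not place them in the same cells.

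**Figure D3:**
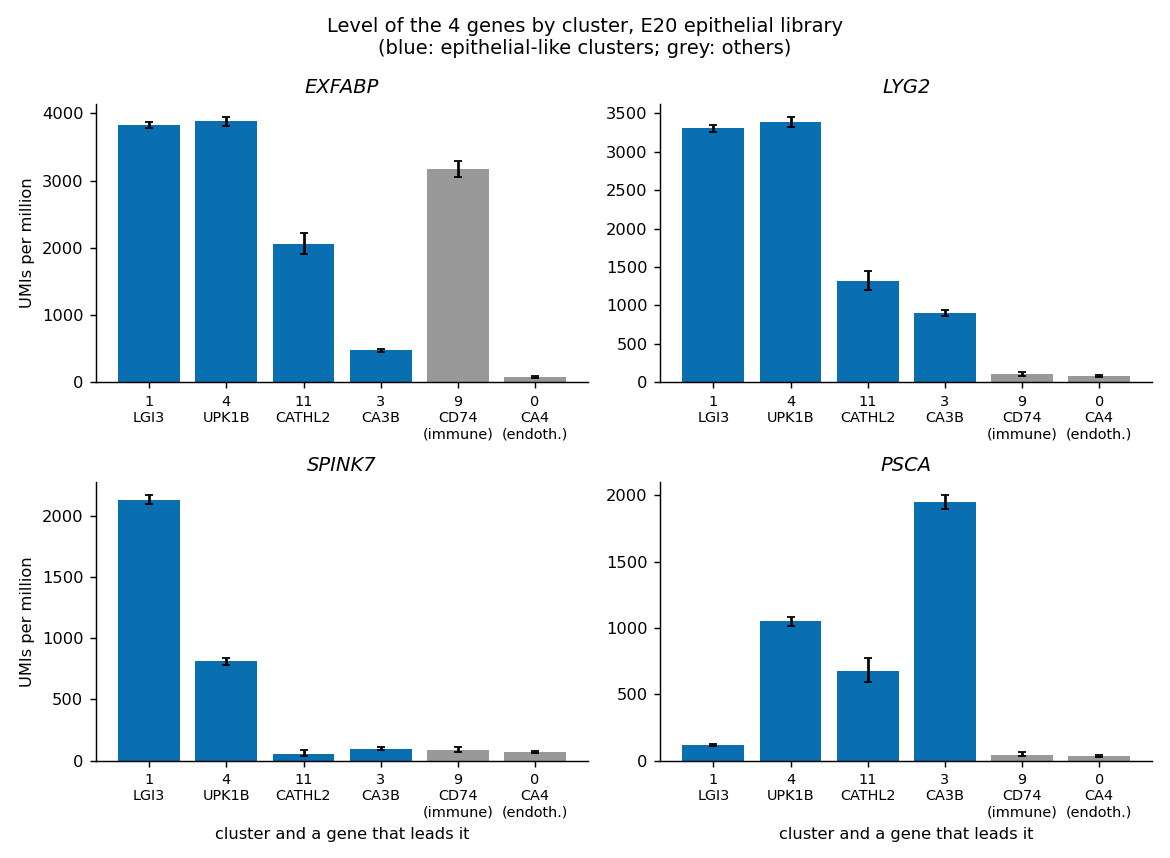
Level of each gene (CPM, bars from 0 with 95% Poisson intervals) in the 4 epithelial-like clusters and in 2 other clusters of the sorted epithelial library, each with a gene that leads it. SPINK7 is highest in cluster 1 at 2138 CPM, PSCA in cluster 3 at 1949 CPM, and the immune-like cluster 9 is high for EXFABP only, at 3167 CPM.

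Within clusters 1 and 3 the genes hardly followed SFTPC from cell to cell. Over all 1941 epithelial-like cells, which share 1 library and vary in depth, the Pearson correlation with SFTPC was 0.69 for EXFABP, 0.67 for LYG2, 0.72 for SPINK7 and -0.43 for PSCA. Within cluster 1 it was 0.11, -0.06, -0.03 and -0.12, and within cluster 3 it was 0.14, 0.13, 0.12 and -0.19. In cluster 4, SPINK7 reached 0.44 with SFTPC and -0.22 with SFTPA1, and LYG2 0.32 with SFTPC. Over all cells the correlation of SPINK7 with SFTPA1 was -0.02. Within cluster 1 it was -0.34. In cluster 11, with 77 cells, EXFABP reached 0.57 and LYG2 0.45 with SFTPA1.

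EXFABP, LYG2 and SPINK7 were each seen more often in cells with one of the others than in cells without it, and PSCA was seen less often in cells with any one of them than in cells without that gene. At 1000 UMIs per cell in the sorted epithelial library, LYG2 had a UMI in 86.6% of cells with EXFABP (84.6 to 88.5) and in 51.1% of cells without it (47.3 to 54.8). EXFABP had one in 81.4% of cells with SPINK7 and in 50.1% of those without. PSCA had one in 17.2% of cells with SPINK7 (14.7 to 19.99) and in 37.9% of those without (35.0 to 40.8). The separation was far from complete, since 64.5% of the 563 cells with PSCA also had LYG2 and 50.1% also had EXFABP, against 77.4% and 69.0% of cells without PSCA. In the CD45neg library PSCA had one in 2 of 32 cells with SPINK7 and in 23 of 58 without. In the sorted epithelial library 174 of 1935 cells had none of the 4 genes at that depth and 101 had all 4.

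For each gene, the 3 genes with the most similar pattern over the 1941 cells were taken from 5667 genes seen in at least 5% of them. For EXFABP these were SFTPC (0.69), LAMP3 (0.67), which encodes a lysosomal membrane protein known from surfactant-making cells in mammals, and LYG2 (0.63). For LYG2 they were SFTPC (0.67), EXFABP (0.63) and LGI3 (0.57), and for SPINK7 they were SFTPC (0.72), LGI3 (0.69) and LAMP3 (0.67). The list of PSCA was separate: EMP1, an epithelial membrane protein (0.48), AQP1, a water channel (0.48), and LY6E, another Ly6-family gene (0.46). In the 90 cells of the CD45neg library the same pairs gave 0.55 to 0.76 for EXFABP, LYG2 and SPINK7 and 0.59 to 0.64 for PSCA.

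Of 24 egg-white protein genes, 11 besides these 4 were matched in the table, and 2 reached 50 CPM in epithelial-like cells, CST3 and SPINK5. CST3, the cystatin of egg white, which inhibits cysteine proteases, stood at 1892 CPM at E13 and at 137331 and 144366 CPM in the sorted epithelial and CD45neg libraries. SPINK5, a Kazal-type inhibitor like SPINK7 and its nearest named neighbour on the lower-coordinate side, stood at 62.5, 1947 and 1300 CPM. In surfactant-high against surfactant-low cells SPINK5 gave a log2 ratio relative to the median gene of 1.40, and CST3 gave 0.90. The lysozyme gene of hen egg white, LYZ, had 3 UMIs in the epithelial-like cells of the sorted epithelial library and none in those of the CD45neg library.

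Of 54 antimicrobial and mucosal defence genes, 32 besides these 4 were matched, and most stayed under 50 CPM in the epithelial-like cells of every library. By stage 2 reached 50 CPM and both were called higher at E20, against 38.9% and 38.7% of all genes: WFDC2, a whey-acidic-protein family gene of secretory epithelia (40.4, 129 and 127 CPM at E13 and in the sorted epithelial and CD45neg libraries), and LGALS3, a galectin (11.6, 168 and 150 CPM). Both were under 50 CPM at E13 and entered only through E20, so their direction by stage was fixed by the filter and nothing is read from it. WFDC2 went with surfactant (relative log2 ratio 1.09 in the epithelial library) and LGALS3 against it (-2.95). LGALS3 was under 50 CPM in the surfactant-high cells of both libraries and entered only through surfactant-low cells, so its direction was fixed by the filter. The defensin and cathelicidin genes AvBD1 and CATHL2 were also called lower in surfactant-high cells, at -3.50 and -4.02, and led cluster 11. Those 2 genes were at 25.4 and 29.8 CPM over all epithelial-like cells and entered the comparison only through the surfactant-low cells, where they are high, so their direction was fixed by the filter. Neither had a UMI in epithelial-like cells of the CD45neg library, where WFDC2 gave 1.27 and LGALS3 -2.73.

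LY6E, the Ly6-family gene nearest to PSCA among named genes, with start positions 74181 bp apart, was also higher at E20 and in surfactant-low cells. It was already well counted at E13, unlike PSCA, and stood at 87.0 CPM at E13 and at 702 and 683 CPM in the sorted epithelial and CD45neg libraries, and gave -2.39 and -2.71 by surfactant in the same scale. Of the other named neighbours, PTGDS, a lipocalin-type prostaglandin synthase whose start lies 6361 bp from that of EXFABP, was at 38.4 and 30.3 CPM at E20. MITD1 and TXNDC9, beside LYG2, were at 14.4 to 34.6 CPM, and SPINK6, beside SPINK7, had 1 UMI in the sorted epithelial library.

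At E13 the low RNA of these genes was already uneven between epithelial clusters. EXFABP stood at 68.6 CPM in cluster 9 (457 nuclei, led by SFTPA1 and the chloride channel gene CFTR) and at 80.8 CPM in cluster 15 (63 nuclei, with the cilia genes ODAD2 and SPEF2 among its leading genes). In the other 6 epithelial-like clusters it ranged from 2.87 to 13.5 CPM. SPINK7 was low in the same clusters, with 2.26 CPM in cluster 9 and 0 UMIs in cluster 15, and stood at 8.998 to 10.7 CPM in the 5 largest of the others. Cluster 16, the smallest, had SPINK7 at 2.25 CPM with EXFABP at 13.5 CPM. LYG2 ranged from 15.04 to 51.8 CPM, with cluster 15 the lowest and cluster 9 within the range of the rest. SFTPA1 itself was at 325 CPM in cluster 9, and SFTPC at 965 CPM, below the 1385 to 1981 CPM of the 5 largest of the others.

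Relative to epithelial-like nuclei, E13 endothelial-like, mesenchymal and immune-like nuclei held EXFABP at 13.9% to 30.7% and LYG2 at 28.1% to 48.5% of the level. SFTPC was at 16.6% to 31.6% in the same classes. SPINK7 was at 0% in endothelial-like, 12.6% in mesenchymal and 4.90% in immune-like nuclei. In endothelial-like and mesenchymal cells EXFABP and LYG2 held a larger share of the epithelial-like level at E13 than in either E20 library. The 0 of SPINK7 in E13 endothelial-like nuclei allows up to 30.3%. It therefore cannot be placed above or below the 5.82% and 0.157% of the sorted epithelial and CD45neg libraries. The part of free RNA in these values was not tested.

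The chromatin of the same E13 nuclei was accessible at the promoters of 3 of the genes. Of the 12 peaks, the deposited list calls 3 promoter peaks and 9 distal. Promoter peaks lay at the start of EXFABP (17:868060-868964), at the start of LYG2 (1:133831210-133832050) and 79 bp from that of SPINK7 (13:11279487-11280378), in galGal6, the build of the submitters' processing notes, counted from 1. PSCA, the gene with 1 UMI at E13, had 3 distal peaks and none called a promoter peak. The other distal peaks numbered 1 for EXFABP, 1 for LYG2 and 4 for SPINK7.

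A count fell in the EXFABP promoter peak in 6.37% of 3656 EPCAM-positive nuclei (5.60 to 7.21) and 2.16% of 3382 EPCAM-negative nuclei (1.70 to 2.71). The LYG2 promoter peak had counts in 6.89% and 2.01%, and the SPINK7 promoter peak in 6.07% and 1.33%. Over all promoter peaks the median share of EPCAM-positive nuclei was 8.75%, so the 3 promoters lay somewhat below the typical one. EPCAM-positive nuclei had more ATAC counts, a median of 4294.5 against 2633, and the median peak was higher in them by 1.04 on the log2 scale. Relative to that median the log2 ratio was 0.52 for the promoter of EXFABP, 0.73 for that of LYG2 and 1.15 for that of SPINK7.

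At least 2-fold higher than the median peak in EPCAM-positive nuclei were 4 of the 12 peaks, against 12% of 82215 peaks. They were the SPINK7 promoter peak (1.15, interval 0.68 to 1.64), a distal SPINK7 peak 6818 bp from its start (1.05, 0.65 to 1.47), and PSCA peaks at -1154 bp (1.19, 0.24 to 2.27) and 8467 bp (1.25, 0.73 to 1.81), with distances signed as in the deposited list. The intervals of all 4 reach below the 2-fold limit. The PSCA peak at -1154 bp had counts in 11 EPCAM-negative nuclei (0.325%) and passed the 1% limit only through EPCAM-positive nuclei (1.53%), so its direction was fixed by the filter. The PSCA peak at 8467 bp (2:148278964-148279847) had counts in 5.22% of EPCAM-positive and 1.06% of EPCAM-negative nuclei. The most widely open of the 12 was the LYG2 distal peak at -1719 bp (1:133833304-133834242), with 15.5% and 4.55%, a share above that of 96.0% of all peaks. The distal EXFABP peak at 2718 bp was lower relative to the median peak in EPCAM-positive nuclei (-0.51).

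Taking epithelial-like against all other named nuclei in place of EPCAM, 7 of the 12 peaks were at least 2-fold higher than the median peak, including all 3 promoter peaks, where 32.6% of 83828 peaks were. The log2 ratio was then 1.12 for the promoter of EXFABP, 2.42 for that of LYG2 and 3.75 for that of SPINK7, which had counts in 6.35% of epithelial-like and 0.318% of other named nuclei. The PSCA peak at 8467 bp gave 2.25, while that at -1154 bp, called with EPCAM, gave -0.11. The promoter peaks of LYG2 and SPINK7, the SPINK7 peaks at 2664 and 6818 bp and the PSCA peak at 8467 bp were under 1% in other named nuclei. These peaks passed the 1% limit only through epithelial-like nuclei, so their direction was fixed by the filter.

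**Figure D4:**
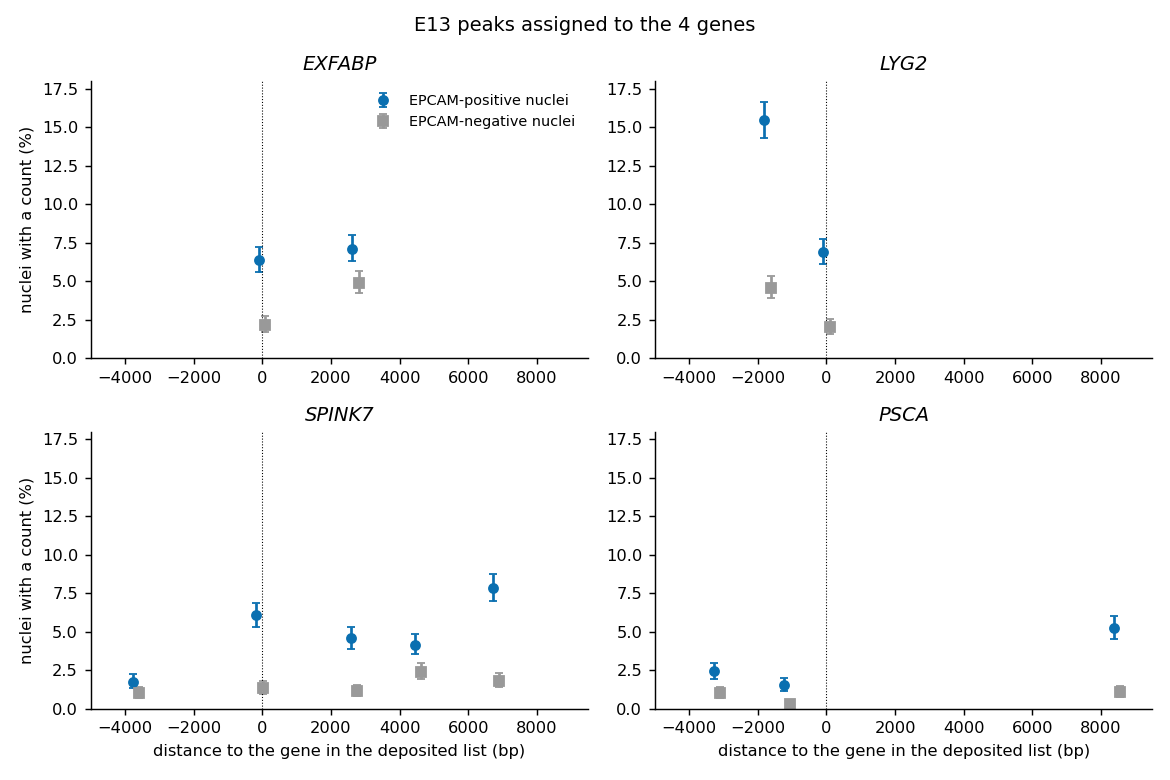
Percent of E13 nuclei with a count in each peak assigned to the 4 genes (95% exact binomial intervals) against its distance to the gene in the deposited list, with EPCAM-positive and EPCAM-negative nuclei set slightly apart. The LYG2 peak at -1719 bp is the highest, at 15.5% of EPCAM-positive nuclei, and PSCA has no peak at its start.

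In E13 cluster 9 the EXFABP and SPINK7 promoter peaks differed from the 5 largest other epithelial-like clusters in the same direction as their RNA. The LYG2 promoter peak of cluster 9 lay within the range of those 5 clusters. In counts per 1000000 ATAC counts, which allows for depth, the EXFABP promoter peak stood at 36.7 in cluster 9 and 41.4 in cluster 15, and at 9.58 to 20.7 in the 5 largest other epithelial-like clusters. Cluster 16, with 53 nuclei, had 38.9 for the peak and 13.5 CPM of EXFABP RNA. The SPINK7 promoter peak stood at 7.34 in cluster 9 and 3.60 in cluster 15, and at 14.7 to 21.8 in the same 5 clusters. In cluster 16 it stood at 23.3, the highest of the epithelial-like clusters, with 2.25 CPM of SPINK7 RNA. For LYG2, cluster 16 had the highest RNA of these clusters, 51.8 CPM, and the lowest promoter peak, 9.72. Only 9 nuclei of cluster 15 and 7 of cluster 16 had a count in the EXFABP peak. The SPINK7 promoter peak had counts in 1 nucleus of cluster 15 and 4 of cluster 16, and the LYG2 promoter peak in 3 of cluster 16. The peak values of clusters 15 and 16 are therefore rough, and their place among the clusters is not read as a result.

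**Figure D5:**
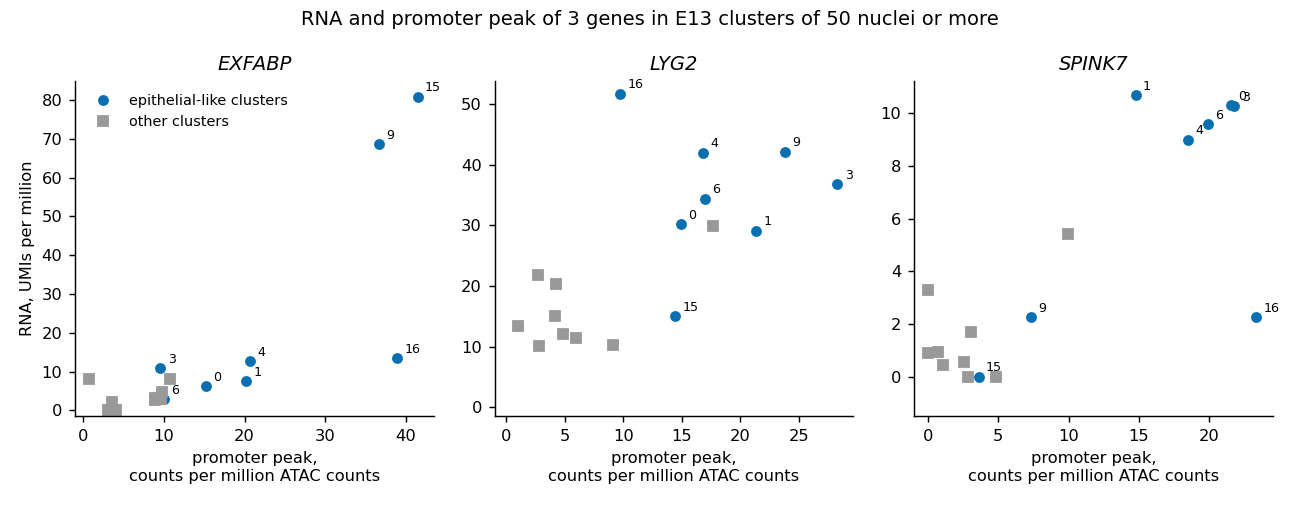
RNA level (CPM) against promoter peak signal (counts per 1000000 ATAC counts) for 3 genes, 1 point per E13 cluster of 50 nuclei or more, with numbers for epithelial-like clusters. For EXFABP clusters 9 and 15 lie apart at 68.6 and 80.8 CPM, and for SPINK7 the same clusters lie low at 2.26 and 0 CPM.

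The PSCA peak at 8467 bp was also uneven, at 27.9 counts per 1000000 in cluster 9 and 21.6 in cluster 15 against 7.83 to 13.3 in the 5 largest other epithelial-like clusters, although its gene had 1 UMI at this stage. In cluster 9 it had counts in 10.5% of nuclei (7.85 to 13.7), and in cluster 15 in 5 of 63 nuclei. Which gene this peak acts on was not tested.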

How the data were processed

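The deposited matrices of 3 RNA libraries are raw UMI counts, and that of the E13 chromatin is raw ATAC counts per peak and nucleus, all made by the authors with cellranger-arc 2.0.0 (E13) and cellranger 4.0.0 (E20), per the file headers. The build, per the submitters' processing notes, was galGal6; whether intron reads were counted is not given in the sources used here. The 4 genes and all gene lists were chosen with earlier results of these data known. Barcodes with at least 500 genes and, at E20, at most 20% mitochondrial UMIs were kept. The highest-scoring cells against simulated pairs were removed as doublets, at 0.8% per 1000 cells. Each library was clustered alone (2000 variable genes, 30 principal components, 15 neighbours, Leiden resolution 1) in Python 3.11.15 with scikit-learn 1.9.0 and leidenalg 0.10.2. The 4 genes, EPCAM, the surfactant genes and the list genes were left out of the clustering.

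A cluster took the name of the list with the most markers on, where a marker is on if seen in at least 10% of its cells, at 0.25 or more of the highest cluster's level and 2 times the lower quartile of clusters, where at least 3 were on and its 10 leading genes held no more markers of another class; mesothelial markers counted only where WT1 was on. These limits were set after seeing the data, and 1198, 310 and 440 cells of the E13, sorted epithelial and CD45neg libraries stayed unnamed. UMIs were summed over cells and given as CPM with exact Poisson intervals (scipy 1.17.1). Log2 ratios were taken after adding 1 CPM and are relative to the median over genes of 50 CPM or more in the higher group, without mitochondrial, ribosomal protein and haemoglobin genes. A gene is called at a 2-fold difference from that median. The ratio's interval is from the exact binomial split of its UMIs. Peaks were compared by the share of nuclei with a count, among peaks with at least 1% in the higher group. A count of 0 allows up to 3 counts. Intervals are at 95%. The log2 ratio and its interval were tested on summed counts simulated with known fold changes. Filtering, doublet removal, clustering, naming and the peak comparison were not tested in that way. Named genes are the 4, marker and surfactant genes, the 3 most correlated genes of each, the nearest named genes, and list genes at 50 CPM or more; LYZ, AvBD1, CATHL2, S100A12 and the genes that lead clusters were named besides, after their values were seen. Alternatives changed 1 choice at a time.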

Additional observations from a re-analysis of the deposited data

How the results depend on the processing

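Over 27 log2 ratios of the 4 genes and their planned and added alternatives, 307 alternative values were computed, of which 174 lay within the counting interval of the reported value, 131 moved outside it and 2 changed sign from a called value. Those 2 came from the surfactant split without SFTPC in the sorted epithelial library, with SPINK7 at -0.47 and PSCA at 0.32. That split left the log2 ratios of all 4 genes under the 2-fold limit in both E20 libraries. At most 10% mitochondrial UMIs left EXFABP, LYG2 and SPINK7 under that limit in the sorted epithelial library, but not in the CD45neg library. The share of all genes past the limit is not given for these settings, and the cause was not tested. At E13, the log2 ratio of EXFABP by EPCAM, 0.97 as reported, passed the 2-fold limit under several alternatives. These were at least 1000 genes, CPM totals that left out mitochondrial, ribosomal protein and haemoglobin genes, and genes from 10 CPM. The others were EPCAM-positive from 2 UMIs and nuclei thinned to 1000 UMIs. As reported, EXFABP was at 14.9 and 6.57 CPM, under the 50 CPM limit, so these ratios are not read as calls. The share of all genes past the limit is not given for them. At 2000 UMIs, 2 E13 shares stood above endothelial-like nuclei, against 0 at 1000. With epithelial-like against other named nuclei, 7 peaks were called, where 32.6% of all peaks were, against 4 as reported, where 12% were. Most of the 7, and of the 4 the PSCA peak at -1154 bp, passed the 1% limit only through the group where they are higher. Among the 7 these were the promoter peaks of LYG2 and SPINK7, the SPINK7 peaks at 2664 and 6818 bp and the PSCA peak at 8467 bp. Their direction was fixed by the filter, so nothing is read from the count of 7. The alternatives without shared barcodes and without immune-like cells were chosen after seeing the data, and neither changed a count of called genes. No paired analysis was possible because each group has 1 library. Depth limits the E13 values of PSCA, which rest on 1 UMI, and the CD45neg values rest on 90 epithelial-like cells. For PSCA by stage, the reported ratio has a pseudocount and its counting interval has none. It lay outside that interval itself, at 9.51 against 12.05 to 19.84 in the sorted epithelial library. All 10 alternatives of that ratio in each E20 library count among the 131 for this reason, and nothing is read from them.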
